A study of Physcomitrium patens with 6 samples.

Results

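Described here is a pair of gene models of the moss Physcomitrella patens that the study's annotation names as tonoplast intrinsic proteins. They were TIP1;3 (Pp1s156_153V6.2) and DELTA-TIP (Pp1s101_226V6.1), 2 of 19265 gene models with a tag in at least 1 of 6 libraries. They were chosen by identifier, and by their values in the comparisons of these same libraries, so that their levels and ratios are given as a description with no test. Transcripts were counted by digital gene expression tag profiling in whole gametophytes regenerating from protoplasts and in cells cut out of them with a laser. The day-3 library came from chloronema of a few cells, the day-14 library from protonema with chloronema and caulonema, the day-24 library from protonema with buds, and the day-30 library from plants with leafy gametophores, protonema and rhizoids. Captured caulonemal and captured chloronemal cells came from live 14-day-old protonema. The strain was Physcomitrella patens subsp. patens with no transgene or mutation named, and all plants were grown on a medium with ammonium tartrate and glucose. The label field for tissue says leafy shoot also at days 3, 14 and 24, whereas the growth notes and the study's methods give protonema, and this description is used here. For each condition 3 biological replicates were combined into 1 library, so that the spread between plants is not known. The captured libraries were made from 2 µg of RNA and the others from 6 µg.

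Tonoplast intrinsic proteins are aquaporins, small membrane proteins that form pores for water, and they lie in the membrane of the vacuole. In Arabidopsis several of them also let urea or ammonia pass. A plant cell grows largely by taking up water into its vacuole, and proton pumps of the same membrane energize the transport of other solutes. Chloronemal cells, the first filaments of a moss, are rich in chloroplasts, whereas caulonemal cells are longer, hold fewer chloroplasts and extend the colony.

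The names are those of the most similar Arabidopsis genes in the study's annotation. The Arabidopsis TIP1;3 protein is known to pass water and urea, and the delta group of tonoplast intrinsic proteins to pass water and ammonia. In the deposited annotation both models carried the terms for intrinsic membrane location, water transmembrane transport and amide transport, and no term for the vacuole. Their place in the vacuolar membrane is thus given by homology.

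In this assay each transcript is represented by a 21-nt tag that starts at a CATG site, and tags are what was counted. The tags of both genes, and that of a further model of the TIP1;3 locus, are shown because the files list the counts of these models under them. Whether a count is that of the listed tag alone or the sum over all tags of the model is not stated in the methods, the labels or the file headers. Capitals mark the CATG site.
TIP1;3 (Pp1s156_153V6.2): CATGtccccggctgctcctga
DELTA-TIP (Pp1s101_226V6.1): CATGgacttcaccaaccactg
Further model of the TIP1;3 locus (Pp1s156_153V6.1): CATGaaggttgctttcggtga
Each gene was listed with the same tag in all 6 libraries, and both tags lay at the CATG site nearest to the 3′ end of the model. Models listed at that site held 58.3%, 53.9%, 62.6% and 71.1% of the gene tags at days 3, 14, 24 and 30. In captured caulonema they held 67.3% and in captured chloronema 64.0%. The part of this difference between libraries in the levels of the pair was not tested. The tags of the pair differed from each other at 14 positions. Neither was within 1 mismatch of any of the 28021 tag sequences listed for other models, and the nearest of those differed at 5 positions. The limit of 1 mismatch that the authors used thus allowed no cross-match among these listed tags, which does not cover other tags of the models. The GC content was 66.7% for the TIP1;3 tag and 52.4% for the DELTA-TIP tag.

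The further model was listed with the tag at site 6 from the 3′ end, and had 38, 12, 13 and 18 tags at days 3, 14, 24 and 30, and 6 tags in captured caulonema. It was not listed in captured chloronema, where 3 tags was taken as the limit that an absent value allows. These counts were small beside those of TIP1;3, and adding them changed no direction below. Of the models annotated for water transport, 4 models of 3 loci also carried the amide transport function. These were the pair, the further model and Pp1s184_96V6.1.

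The libraries held between 1733082 tags assigned to genes in captured chloronema and 7027742 at day 14. Trimmed mean of M-values (TMM) factors of 0.832 to 1.20 were used to scale them, and levels are given as normalized TPM, which are the counts set to TPM by the scaled library size. Intervals of levels are exact Poisson intervals and those of ratios exact binomial intervals at 95%. They cover counting error only and not the spread between plants. Copies made by PCR are not independent molecules, so that the intervals can be too narrow even for that error. Days 3, 14 and 24 resembled each other, with Spearman correlations of 0.622 to 0.717 over 8293 models, and so did day 30, captured chloronema and captured caulonema, with 0.611 to 0.798. Between these sets the correlations were 0.373 to 0.639, so that the ranges overlap. The highest of them were those of day 14 with captured chloronema (0.639) and captured caulonema (0.614), which came from plants of that age. Day 30 was closer to captured chloronema (0.611) and captured caulonema (0.620) than to day 24 (0.405), so that a difference between libraries and one between stages cannot be told apart for day 30.

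TIP1;3 was an abundant transcript in every library and was lowest at day 14. It had 7655, 2289, 10536 and 4147 tags at days 3, 14, 24 and 30, with 1629 tags in captured caulonema and 1217 in captured chloronema. The deposited TPM were 1023, 278, 1311 and 1172 from day 3 to day 30, 479 in captured caulonema and 371 in captured chloronema. In normalized TPM the levels were 1341 (95% interval 1311 to 1371) at day 3, 392 (376 to 408) at day 14, 1807 (1772 to 1842) at day 24 and 1688 (1637 to 1740) at day 30. Captured caulonema had 530 (505 to 556) and captured chloronema 694 (656 to 734) normalized TPM.

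From lowest to highest with TMM factors, the order was day 14, captured caulonema, captured chloronema, day 3, day 30 and day 24. No neighbors in this order had overlapping counting intervals. The order of day 30 and day 24, and that of the captured cell types, nevertheless changed with the scaling, as given below. TIP1;3 ranked 91st, 564th, 50th and 48th among the listed models at days 3, 14, 24 and 30. It ranked 245th in captured caulonema and 242nd in captured chloronema. Its highest level was 4.61-fold above its lowest. Among the 8293 models listed in all 6 libraries with over 100 tags in at least 1, the median range was 6.64-fold, and 33.6% of the models had a smaller range than TIP1;3.

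DELTA-TIP stood out at day 30 and was lowest in captured chloronema. It had 1594, 937, 2188 and 4400 tags at days 3, 14, 24 and 30, with 433 tags in captured caulonema and 102 in captured chloronema. The deposited TPM were 213, 114, 272 and 1244 for these days, 127 in captured caulonema and 31.1 in captured chloronema. The normalized levels were 279 TPM at day 3, 160 at day 14, 375 at day 24 and 1791 at day 30. They were 141 (95% interval 128 to 155) in captured caulonema and 58.2 (47.4 to 70.6) in captured chloronema.

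The DELTA-TIP order from lowest to highest was captured chloronema, captured caulonema, day 14, day 3, day 24 and day 30. Only captured caulonema and day 14 had overlapping intervals among neighbors in it. DELTA-TIP ranked 661st, 1280th, 457th and 41st at days 3, 14, 24 and 30, and 1021st in captured caulonema and 2422nd in captured chloronema. Its range of 30.8-fold was larger than that of 91.0% of the 8293 models. Without day 30, its levels stayed between 58.2 and 375 normalized TPM.

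**Figure D1:**
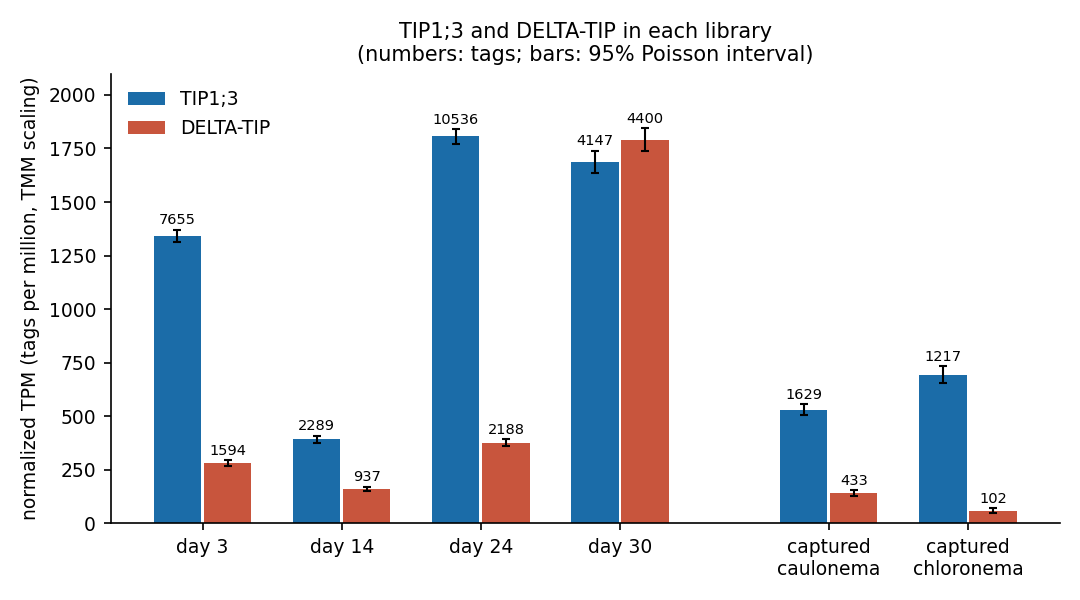
Levels of TIP1;3 (blue) and DELTA-TIP (red) in normalized TPM (y axis) in the 6 libraries (x axis), with 95% Poisson intervals as error bars and the number of tags above each bar. TIP1;3 was the higher of the pair in 5 libraries, and at day 30 the bars stood at 1688 for TIP1;3 and 1791 for DELTA-TIP.

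At day 14 both transcripts were lower than at day 3. TIP1;3 had 2289 tags at day 14 against 7655 at day 3, and its level was 3.42-fold lower (95% interval 3.27 to 3.59). DELTA-TIP had 937 tags at day 14 against 1594 at day 3 and was 1.74-fold lower (1.61 to 1.89). In what follows a model is said to pass where its levels differed over 2-fold and at least 1 library of the comparison held over 100 of its tags. TIP1;3 passed in this comparison and DELTA-TIP did not. Over all 7710 models with enough tags, 20.1% were over 2-fold higher and 20.3% over 2-fold lower at day 14, with a median log2 ratio of 0.07. Of these models 9.03% had a lower ratio than TIP1;3 and 24.3% a lower ratio than DELTA-TIP.

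At day 24, when buds had formed, both levels were above those of day 14. TIP1;3 had 10536 tags at day 24 against 2289 at day 14 and was 4.61-fold higher (95% interval 4.41 to 4.83). DELTA-TIP had 2188 tags at day 24 against 937 at day 14 and was 2.34-fold higher (2.17 to 2.53). Both passed, beside 23.2% of 7913 models that were higher and 26.4% that were lower at day 24. These ratios and those against day 3 share the day-14 library. Set directly against day 3, the day-24 level was 1.35-fold higher (1.31 to 1.39) for TIP1;3 and 1.34-fold higher (1.26 to 1.43) for DELTA-TIP.

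At day 30 the pair diverged. DELTA-TIP had 4400 tags at day 30 against 2188 at day 24, in a library with fewer tags, and was 4.77-fold higher (95% interval 4.53 to 5.03). TIP1;3 had 4147 tags at day 30 against 10536 at day 24, and the ratio of its levels was 0.93 (0.90 to 0.97). Scaled by total gene tags this TIP1;3 ratio was 1.01, and with DESeq2 size factors it was 1.04, so that no direction is given for it. DELTA-TIP passed and TIP1;3 did not, beside 23.2% of 7267 models that were higher and 39.4% that were lower at day 30. The median log2 ratio of all these models was -0.48, and 10.5% of them had a higher ratio than DELTA-TIP. Against day 3 the day-30 level was 6.41-fold higher for DELTA-TIP and 1.26-fold higher for TIP1;3, and against day 14 it was 11.2-fold and 4.31-fold higher.

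In captured caulonema, DELTA-TIP was higher than in captured chloronema. It had 433 tags in captured caulonema against 102 in captured chloronema, and its level was 2.42-fold higher (95% interval 1.95 to 3.04). Under the other scalings tried this ratio was 2.27 to 4.10. TIP1;3 had 1629 tags in captured caulonema against 1217 in captured chloronema, and the ratio of its levels was 0.76 (0.71 to 0.82). The direction of the TIP1;3 ratio depended on the scaling, as it was 1.29 with the deposited TPM and also relative to Pp1s17_377V6.1, the gene that the study used as internal control for captured cells. The level of that control was 678 normalized TPM in captured caulonema and 1144 in captured chloronema. Its deposited TPM were nearly equal, at 612.5 in captured caulonema and 610.7 in captured chloronema. Scaling to this gene thus nearly repeats the deposited TPM and is not a separate line of evidence. DELTA-TIP passed and TIP1;3 did not, beside 21.8% of 4292 models that were higher and 16.5% that were lower in captured caulonema. In pooled cells, as in whole plants, fewer cells of a type and less RNA per cell cannot be told apart.

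The scaling moved all models together between the captured cells. Tags assigned to genes were 75.2% of the tags that the deposited TPM were scaled to in captured caulonema and 52.8% in captured chloronema. Deposited TPM of all models in captured chloronema are thus low beside a scaling by gene tags. The median log2 ratio of captured caulonema over captured chloronema was 0.13 with TMM factors, 0.38 when total gene tags were used and 0.89 for the deposited TPM. Models higher in captured caulonema were 56.9% of those that passed with TMM factors, 70.0% when total gene tags were used and 88.2% for the deposited TPM. On the log2 scale, DELTA-TIP lay at 1.28 and TIP1;3 at -0.39 with TMM factors. A change of scaling moves each model and the median by the same amount, so that the distance of either gene from the median is the same under all of them.

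**Figure D2:**
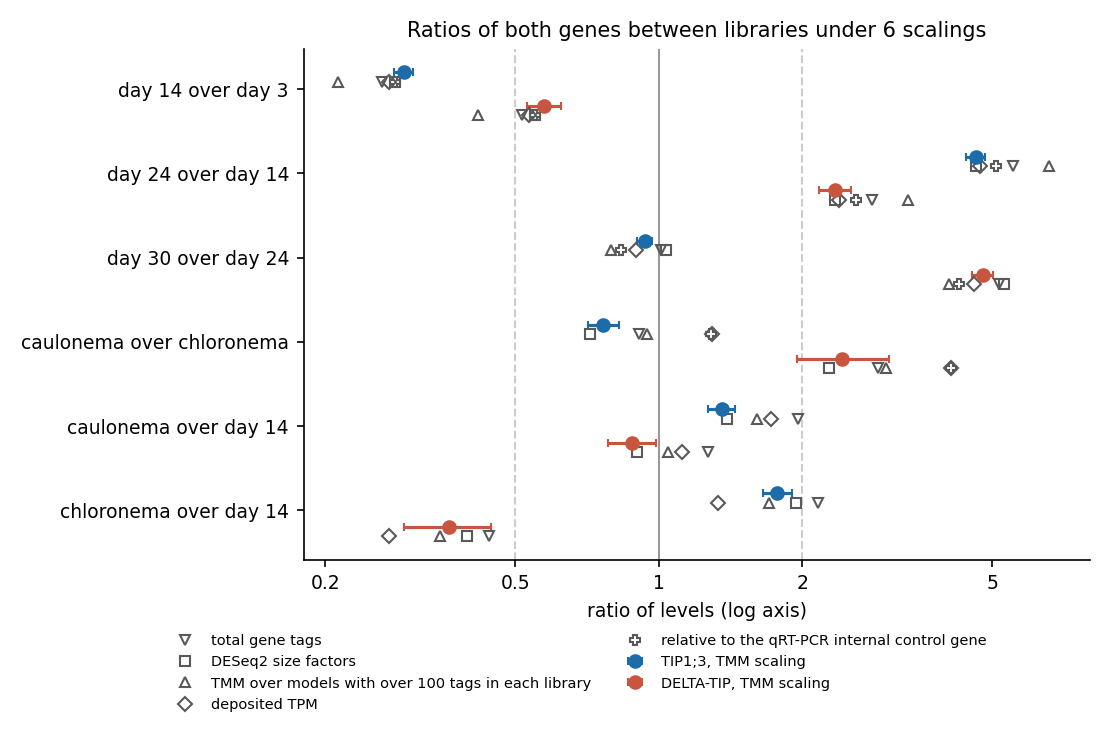
Ratio of levels (x axis, log scale) of TIP1;3 (blue) and DELTA-TIP (red) in 6 comparisons (y axis, later stage or named cell type over its reference), with 95% binomial intervals after TMM scaling. Open gray symbols give the same ratio under the other scalings, and dashed lines mark 2-fold. DELTA-TIP lay right of 2 in 3 comparisons under every scaling, whereas TIP1;3 fell on both sides of 1 for day 30 over day 24 and for captured caulonema over captured chloronema.

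The captured cells can also be set against the whole plants of the same age. The ratio of the TIP1;3 level in captured cells to that at day 14 was 1.77 (95% interval 1.65 to 1.90) for chloronema and 1.35 (1.27 to 1.44) for caulonema. For DELTA-TIP it was 0.36 (0.29 to 0.45) in captured chloronema, 2.76-fold lower, and 0.88 (0.78 to 0.99) in captured caulonema. Of these only DELTA-TIP in captured chloronema passed. In captured chloronema 12.5% of 6553 models were over 2-fold higher than at day 14 and 38.7% over 2-fold lower, and in captured caulonema the shares were 15.4% and 34.8% of 6917. The whole-plant level of TIP1;3 was thus below that of both captured cell types. DELTA-TIP in captured caulonema was 1.27 times its day-14 level with total gene tags, so that its direction there depended on the scaling. Capture, the amount of RNA and the library differed together between these samples and cannot be told apart from the cell type.

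The number of DELTA-TIP tags per TIP1;3 tag is taken within a library and needs no scaling between libraries. The count of a single tag does not grow with transcript length, but a sum over tags could grow with the number of CATG sites, and the efficiency of each tag is not known, so that the ratio is compared between libraries and not read as a ratio of molecules. It was 0.208 (95% interval 0.197 to 0.220) at day 3, 0.409 (0.379 to 0.442) at day 14, 0.208 (0.198 to 0.217) at day 24 and 1.06 (1.02 to 1.11) at day 30. In captured caulonema it was 0.266 (0.239 to 0.296) and in captured chloronema 0.0838 (0.0678 to 0.103).

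DELTA-TIP made up 17.2% of the tags of the pair at day 3, 29.0% at day 14, 17.2% at day 24 and 51.5% at day 30. In captured caulonema it had 433 of 2062 tags of the pair, and in captured chloronema 102 of 1319, or 7.73%. Between days 24 and 3 the ratio of DELTA-TIP per TIP1;3 tag was 0.997 (95% interval 0.928 to 1.07), although the summed level of the pair was 2182 normalized TPM at day 24 and 1620 at day 3. Between day 30 and day 24 the change in DELTA-TIP per TIP1;3 tag was 5.11-fold (4.80 to 5.44), and between captured caulonema and captured chloronema it was 3.17-fold (2.52 to 4.02). At day 14 DELTA-TIP per TIP1;3 tag was 1.97-fold (1.79 to 2.16) that of day 3. The share at day 14 was above that of both captured cell types. Relative to day 14, DELTA-TIP per TIP1;3 tag was 4.88-fold lower (3.93 to 6.12) in captured chloronema and 1.54-fold lower (1.35 to 1.76) in captured caulonema.

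**Figure D3:**
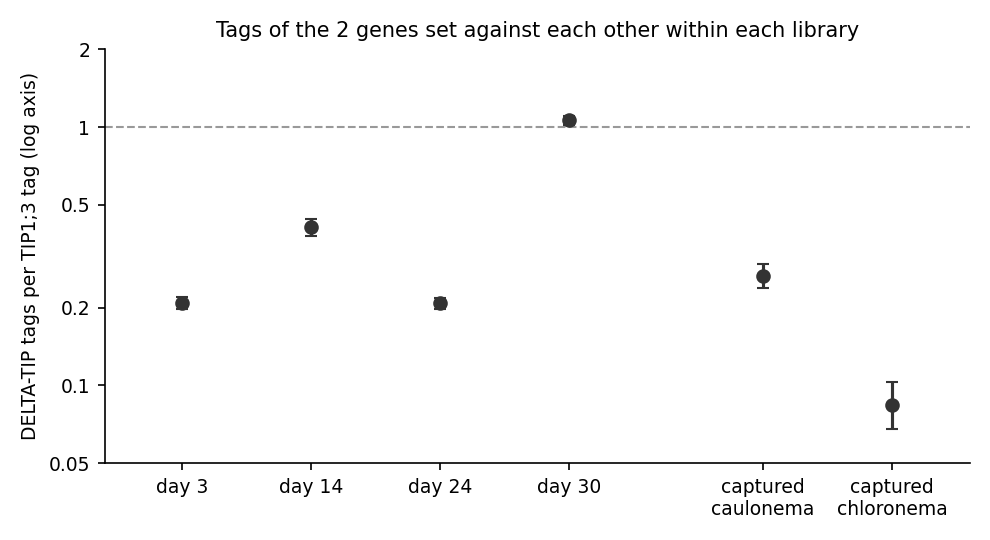
DELTA-TIP tags per TIP1;3 tag (y axis, log scale) in each library (x axis), with 95% binomial intervals. Days 3 and 24 both stood at 0.208, day 30 at 1.06 just above the dashed line of equal tags, and captured caulonema at 0.266 above captured chloronema at 0.0838.

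Together the pair supplied most of the tags of all water channel models. The water channel list held 12 models, namely the pair and 10 others with a term for water transport, of which 6 models had over 100 tags in at least 1 library. The pair took 99.1%, 88.3%, 89.5% and 80.7% of the list's tags at days 3, 14, 24 and 30, and 95.5% in captured caulonema and 97.0% in captured chloronema. The remaining 6 models reached at most 12 to 49 tags.

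Pp1s55_301V6.4, annotated for water transport and stress response, had 3, 46, 1090 and 1327 tags at days 3, 14, 24 and 30, and 12 tags in captured caulonema and 32 in captured chloronema. It was 23.8-fold higher (95% interval 17.7 to 32.6) at day 24 than at day 14 and 2.89-fold higher (2.66 to 3.13) at day 30 than at day 24. Its listed tag was not the same everywhere. At days 14, 24 and 30 the tag at the site nearest to the 3′ end was listed for it, and at day 3 and in both captured cell types that at site 3. The ratios given for it compare libraries with the same listed tag.

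Pp1s1_535V6.4, annotated for water transport and osmotic stress, was listed at days 24 and 30 only, with 56 tags at day 24 and 423 at day 30. Its level was 17.9-fold higher (95% interval 13.5 to 24.1) at day 30 than at day 24. Pp1s184_96V6.1, which shares the amide transport term with the pair, had 29, 25, 56 and 221 tags at days 3, 14, 24 and 30 and was 9.37-fold higher (6.96 to 12.8) at day 30 than at day 24. It had 68 tags in captured caulonema and 5 in captured chloronema.

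Pp1s267_61V6.1 went another way, with its highest count at day 14. It had 2, 335, 183 and 6 tags at days 3, 14, 24 and 30, and 12 tags in captured caulonema and 2 in captured chloronema. With only 2 tags at day 3, the ratio of day 14 over day 3 was 164 with a wide interval of 44.9 to 1356. At day 30 its level was 12.9-fold lower (5.79 to 35.5) than at day 24. In captured caulonema it was 14.7-fold lower (8.29 to 28.7) than at day 14, and in captured chloronema 50.3-fold lower with an interval of 13.8 to 417.

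Of the models on this list with enough tags, at day 14 1 of 3 was higher and 1 lower than at day 3, beside 20.1% higher and 20.3% lower among all models. At day 24, 3 of 4 were higher than at day 14, beside 23.2% of all models. At day 30, 4 of 6 were higher and 1 lower than at day 24, beside 23.2% and 39.4%. In captured caulonema 1 of 2 was higher than in captured chloronema, beside 21.8%. Against day 14, 2 of 3 were lower in captured chloronema, beside 38.7%, and 1 of 3 in captured caulonema, beside 34.8%, and none was higher. These counts include the pair, which was chosen with these comparisons known. Without the pair, the 1 model with enough tags was higher at day 14 than at day 3. At day 24, 1 of 2 was higher than at day 14, and at day 30, 3 of 4 were higher and 1 lower than at day 24. Between the captured cells, 0 other models had enough tags. Against day 14 only 1 other model had enough tags, and it was lower in both captured cell types.

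**Figure D4:**
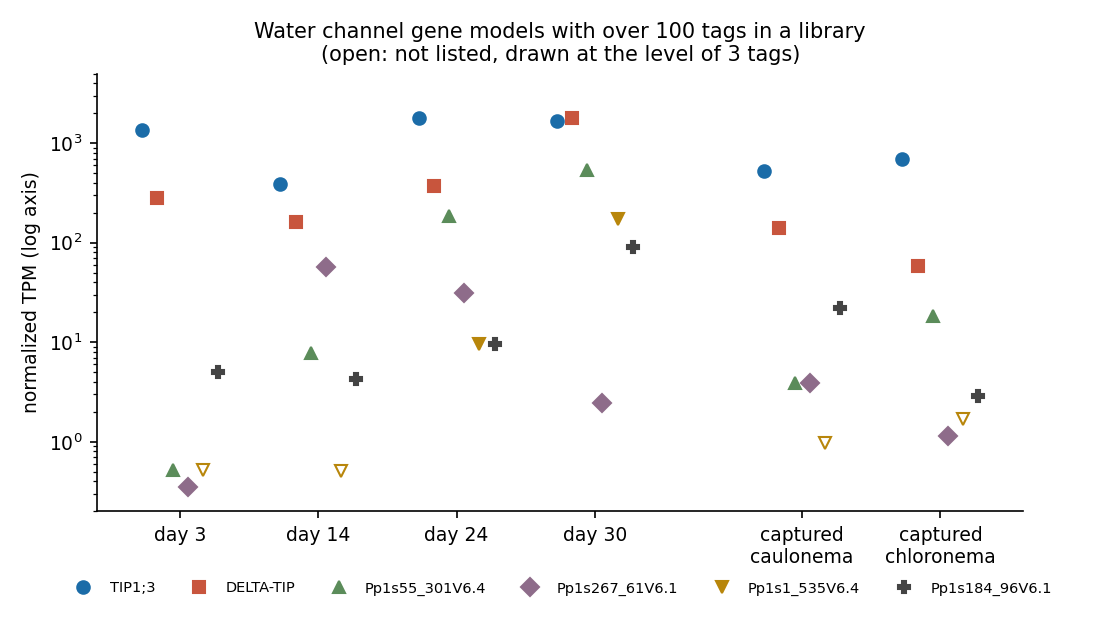
Levels in normalized TPM (y axis, log scale) of the 6 water channel models with over 100 tags in a library, by library (x axis), where open symbols mark a model not listed and drawn at 3 tags. TIP1;3 and DELTA-TIP were the most abundant in each library, and at day 30 Pp1s55_301V6.4 reached 540 normalized TPM.

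The vacuolar ATPase pumps protons across the same membrane. The proton pump list held 21 models, all annotated to this ATPase, and its summed level was 1937, 1671, 1363 and 1040 normalized TPM at days 3, 14, 24 and 30, where the pair summed to 1620, 552, 2182 and 3479. It was 1052 in captured caulonema and 1252 in captured chloronema, and in the deposited TPM 950 in captured caulonema and 669 in captured chloronema. The fall of the sum over the days lay largely in Pp1s100_117V6.1, Pp1s10_201V6.1 and Pp1s44_102V6.1, picked after their values were seen. They had 452, 368 and 305 normalized TPM at day 3 and 48.8, 39.9 and 49.2 at day 30. Other models of the list moved both ways between these days. At day 14, 1 of 17 pump models with enough tags was higher and none lower than at day 3, with a median log2 ratio of -0.07, beside 20.1% higher and 20.3% lower among all models (median 0.07). At day 24, 1 of 17 was higher and 6 were lower than at day 14 (median -0.39), beside 23.2% and 26.4% (median -0.06). At day 30, 4 of 16 were higher and 4 lower than at day 24 (median -0.18), beside 23.2% and 39.4% (median -0.48). In captured caulonema 1 of 13 was higher and 1 lower than in captured chloronema (median -0.33), beside 21.8% and 16.5% (median 0.13).

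Within a library, the pair had 0.836, 0.330, 1.60 and 3.35 tags for each tag of the pump list at days 3, 14, 24 and 30. In captured caulonema there were 0.638 and in captured chloronema 0.601 tags of the pair per pump tag, and the 95% intervals of these values (0.603 to 0.674 and 0.561 to 0.643) overlapped. The few models that carried the fall of the pump sum are counted in these ratios too. VHA-A (Pp1s10_201V6.1), the catalytic subunit of the vacuolar ATPase, had 2102, 1591, 2026 and 98 tags at days 3, 14, 24 and 30, and 114 tags in captured caulonema and 39 in captured chloronema. Pp1s100_117V6.1, another pump model, had 2581, 1619, 627 and 120 tags on these days, with 115 in captured caulonema and 48 in captured chloronema. In normalized TPM these pump models lay at 107.5 to 452 at days 3, 14 and 24, against 22.2 to 48.8 at day 30 and in the captured cells. They were named for their number of tags over all libraries, which favors models high in the deeper libraries of days 3, 14 and 24. Pump model Pp1s39_324V6.1, chosen after its values were seen, went the other way, with 35.4, 43.8, 21.1 and 68.8 normalized TPM at days 3, 14, 24 and 30, 61.5 in captured caulonema and 127 in captured chloronema.

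Another list held 55 models, 47 with the vacuole or its membrane as a cell component term and 8 taken in by a name or by a process or function term. Some, such as Pp1s270_27V6.1 and Pp1s6_159V6.1, also carried a term for a proton-transporting ATPase complex. The pump list, its sums and the ratios per pump tag above leave these out. In this list day 14 had 5 of 28 with enough tags above their day-3 level by over 2-fold and 11 below it by as much, beside 20.1% and 20.3% of all models. At day 24, 11 of 31 were higher and 9 lower than at day 14, beside 23.2% and 26.4% of all models. At day 30, 8 of 29 were higher and 10 lower than at day 24, beside 23.2% and 39.4%. In captured caulonema 1 of 13 was higher and 1 lower than in captured chloronema, beside 21.8% and 16.5%. Pp1s352_50V6.1, a membrane transport ATPase by its terms, had 2179, 818, 398 and 110 tags at days 3, 14, 24 and 30, and 796 tags in captured caulonema and 258 in captured chloronema. Pp1s69_133V6.5, annotated to the vacuole and lipid metabolism, had 417, 436, 1600 and 359 tags on these days, with 497 in captured caulonema and 529 in captured chloronema.

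Since members of the DELTA-TIP group carry ammonia in Arabidopsis, the ammonium transporters were followed beside it. The list held 2 models, both named AMT2. Names came from the study's list of changed transcripts, so that a model could enter by name only if called changed there. Both were over 2-fold higher at day 30 than at day 24, beside 23.2% of all models with enough tags. With such a list this count is not read as a result about ammonium transporters. Pp1s15_321V6.1 had 53, 51, 39 and 727 tags at days 3, 14, 24 and 30, and 49 tags in captured caulonema and 44 in captured chloronema. Pp1s12_395V6.1 had 18, 40, 193 and 236 tags on these days, with 107 in captured caulonema and 71 in captured chloronema. The first stood out at day 30, and the second was over 2-fold higher already at day 24 than at day 14.

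Expansins loosen the cell wall during growth, and the expansin list held 2 models, both named EXPB3. These names, too, came only from the study's list of changed transcripts. Pp1s147_37V6.1 was not listed at day 3 and had 200, 8 and 3 tags at days 14, 24 and 30, with 115 tags in captured caulonema and 259 in captured chloronema. Pp1s100_99V6.1 was listed at days 24 and 30 only, with 84 and 149 tags.

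As a check of the labels of the captured cells, 100 models annotated to the photosystems were summed. Their level was 61165 normalized TPM in captured caulonema and 81839 in captured chloronema, with 92 of 100 models listed in each. In the deposited TPM the order was the other one, with a sum of 55242 in captured caulonema and 43693 in captured chloronema, so that no direction is given. With TMM factors, 10 of 80 with enough tags were higher and 18 lower in captured caulonema, beside 21.8% and 16.5% of all models, with a median log2 ratio of -0.16. Over the days the sum was 23991, 106667, 46588 and 62927 normalized TPM at days 3, 14, 24 and 30. The sum was thus highest at day 14, where TIP1;3 was lowest, and the part of this in the levels of the pair was not tested. The photosystem models with the most tags were Pp1s254_3V6.1, with 8010 tags in captured caulonema and 2030 in captured chloronema, and Pp1s27_97V6.1, with 17301 and 8080 tags in these cells. In normalized TPM these were 2607 against 1158 and 5630 against 4608. More models of the list that passed went the other way, as counted above. Of these, Pp1s1_629V6.1 (1630 against 7941) and Pp1s248_60V6.1 (705 against 7067) were picked after their values were seen.

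The models with the most similar profiles were sought among 8292 candidates by the root mean square difference of centered log2 levels over the 6 libraries. For TIP1;3 the 5 nearest lay at 0.16 to 0.27, against a median of 1.28 over all candidates. These were Pp1s231_7V6.2 (an oxidoreductase by its term), Pp1s14_348V6.1 (a tetratricopeptide repeat protein), Pp1s93_123V6.1 (with a term for chromatin organization), Pp1s177_102V6.1 and Pp1s24_131V6.1. The nearest, Pp1s231_7V6.2, had 81, 23, 102 and 54 tags at days 3, 14, 24 and 30, and 18 tags in captured caulonema and 11 in captured chloronema. Its Pearson correlation with TIP1;3 was 0.98 over the 6 libraries. The nearest of 8292 candidates lie far below the median distance by the choice itself, and a high correlation of the nearest follows from it too. The same holds for DELTA-TIP.

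For DELTA-TIP the 5 nearest lay at 0.36 to 0.48, against a median of 1.80. They were Pp1s150_90V6.1 (an AAA-type ATPase), Pp1s1_206V6.1, Pp1s56_150V6.1, Pp1s138_60V6.1 (an A20/AN1-like zinc finger protein) and Pp1s45_86V6.2. The zinc finger gene had counts of the same size as DELTA-TIP, with 1886, 946, 1797 and 4206 tags at days 3, 14, 24 and 30, 987 tags in captured caulonema and 141 in captured chloronema. Without the day-30 library 2 of the 5 models nearest to TIP1;3 remained among its nearest 5, and none of those nearest to DELTA-TIP did. The pair were not close neighbors of each other. DELTA-TIP ranked 2972nd among the candidates for TIP1;3, and TIP1;3 ranked 570th among those for DELTA-TIP, at a distance of 1.11 and a Pearson correlation of 0.70.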

How the data were processed

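The authors sequenced 21-nt tags next to CATG sites, discarded single-copy tags and tags that matched several genes, and matched the rest to the Phytozome v7.0 gene models with at most 1 mismatch. For this step blastn is named in the methods and Bowtie in the submitters' processing notes, and versions are not given in the sources. The deposited counts are tags per gene model, unnormalized, and each is listed with 1 tag and its site. The deposited TPM values are these counts scaled by the authors to the clean tags of the library. The lowest listed count was 2, and a model not listed in a library was set to 0 there, with 3 tags as its limit.

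Counts were scaled by TMM in edgeR 4.0.16 (R 4.3.3). Intervals were computed in scipy 1.17.1 and tables in Python 3.11.15 with numpy 2.4.6, pandas 2.3.3 and matplotlib 3.10.9. With 1 library per condition no quasi-likelihood test could be fitted and no p-value is given. A model passed with over 2-fold and over 100 tags in at least 1 library. The members and lists (water channels, vacuolar proton pumps, other vacuole models, ammonium and urea transporters, expansins, photosystems) were chosen with earlier results of these data known. Lists were drawn from annotation terms and from names, for which a part of the study's list of changed transcripts was at hand. A model with no name there could enter a list by its annotation terms only. Named besides the pair were the water channel models with over 100 tags, the 2 models with the most tags of each other list, the 5 with the nearest profile (0.5 tags added before logs) and the internal control genes of the study. Alternatives tried were scaling by total gene tags or by DESeq2 1.42.0 size factors, TMM over models with over 100 tags in each library, the deposited TPM, the control genes, other thresholds, an added exact binomial test and other measures of likeness. Summing both models of the TIP1;3 locus was chosen after seeing the data. No model matched the RefSeq gene table by its protein accession (0 of 19265), so that no coordinates are given.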

Additional observations from a re-analysis of the deposited data

How the results depend on the processing

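Every ratio here compares 1 library with 1 other, so that no setting measures the spread between plants. No paired analysis was possible because each condition has 1 library. All ratios are later over earlier, or first over second as named. The ratios of day 24 over day 3, day 30 over day 3 and day 30 over day 14 were not run under other scalings. Of the other ratios, those without a value here stayed within the counting interval of the TMM value. The within-library values of DELTA-TIP per TIP1;3 do not depend on the scaling.

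With total gene tags the TIP1;3 ratio was 0.263 for day 14 over day 3, 5.52 for day 24 over day 14, 1.01 for day 30 over day 24, 0.907 for caulonema over chloronema, 2.16 for chloronema over day 14 and 1.96 for caulonema over day 14. The DELTA-TIP ratio was 0.518, 2.80 and 5.16 in the comparisons of days and 1.27 for caulonema over day 14. With DESeq2 size factors TIP1;3 was at 1.04 for day 30 over day 24 and 1.94 for chloronema over day 14, and DELTA-TIP at 5.30 for day 30 over day 24. With TMM over models with over 100 tags in each library TIP1;3 was at 0.212, 6.56 and 0.793 in the comparisons of days, 0.945 for caulonema over chloronema and 1.61 for caulonema over day 14, and DELTA-TIP at 0.418, 3.33 and 4.05 and 1.04. The DELTA-TIP ratio of day 14 over day 3 passed 2-fold under this setting only, and the TIP1;3 ratio of chloronema over day 14 passed it with total gene tags only.

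With the deposited TPM TIP1;3 was at 0.272 for day 14 over day 3, 0.894 for day 30 over day 24, 1.29 for caulonema over chloronema, 1.33 for chloronema over day 14 and 1.72 for caulonema over day 14. DELTA-TIP was at 4.10 for caulonema over chloronema, 0.273 for chloronema over day 14 and 1.12 for caulonema over day 14. Relative to the internal control genes TIP1;3 was at 5.09 for day 24 over day 14, 0.832 for day 30 over day 24 and 1.29 for caulonema over chloronema, and DELTA-TIP at 2.58, 4.25 and 4.09. Between the captured cells this setting nearly repeats the deposited TPM. It was not run against day 14 for captured cells, whose control gene differs. Over the 5 scalings applied to all models, the share of higher models among those that passed was 28.2% to 49.8% for day 14 over day 3, 46.7% to 68.1% for day 24 over day 14, 31.4% to 40.8% for day 30 over day 24, 51.9% to 88.2% for caulonema over chloronema, 13.1% to 34.8% for chloronema over day 14 and 30.7% to 50.4% for caulonema over day 14. The median log2 ratio of all models was -0.39 to 0.07, -0.06 to 0.44, -0.72 to -0.33, 0.04 to 0.89, -0.95 to -0.25 and -0.43 to 0.10 in the same order.

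Without a tag minimum, 8 water channel models were higher at day 24 than at day 14 in place of 3, beside 4497 of all models in place of 1832. At day 30, 7 were higher than at day 24 in place of 4, beside 4926 of all models in place of 1683. Over 4-fold, 0 pump models were higher in caulonema than in chloronema in place of 1, beside 256 of all models in place of 936. At day 24, 1 pump model was over 4-fold lower than at day 14 in place of 6, beside 775 of all models in place of 2088. By Pearson correlation 3 of the 5 models named for TIP1;3 and 0 of those for DELTA-TIP stayed among the nearest, and with 5 tags added 4 and 3 did. Adding the exact binomial test left all list counts within 1.5 times.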
